A study of Rattus norvegicus with 4 samples.

Results

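The NF-kB genes described here are 10 of the 23360 gene symbols listed in the data, chosen by name and not by their values. They comprise the subunit genes Nfkb1, Nfkb2, Rela and Relb, the inhibitor genes Nfkbia, Nfkbib, Nfkbie and Tnfaip3, and the IKK genes Ikbkb and Ikbkg. The samples are poly(A) RNA of INS-1 cells, an insulin-secreting line from a rat insulinoma, of a subline that carries the human insulin gene. The 2 control cultures grew as a standard monolayer (2D), and the 2 other cultures were 3D-bioprinted in GelXA LAMININK 411, a gelatin methacrylate hydrogel with laminin-411 that is hardened with light (3D). All 4 cultures received the same RPMI-1640 medium with serum, HEPES, pyruvate and 2-mercaptoethanol and were harvested after 5 days at passage 3. The 3D cultures differ from the monolayer in printing, light, matrix and geometry at once, and these cannot be told apart.

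NF-kB is a family of dimeric transcription factors. In resting cells the dimers are held in the cytoplasm by IkB proteins. Receptors for TNF and interleukin-1 activate the IKK kinase complex, which phosphorylates the IkB proteins and so marks them for destruction, and the dimers then enter the nucleus. Several genes of the system, among them those of IkB-alpha and A20, are themselves switched on by NF-kB, which forms a negative feedback loop. In beta cells the pathway is best known for the response to inflammatory cytokines.

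The letters of the kB site, to which the dimers bind, can be read in several of these promoters, and they are printed here because the feedback genes of the system are known for such sites. RefSeq promoter windows of the GRCr8 assembly, covering 250 bases before and 50 bases after the annotated start, were found for 8 of the 10 genes, and Relb and Ikbkb had no entry. The kB consensus motif, searched on both strands, was present in 6 of these 8 windows and in 7.51% of all 33469 windows of the same 300 bases. The windows of Rela and Nfkbib held no match. A match describes letters and not occupancy, and no match says only that these letters are not in the window. The 250 bases before the start of Tnfaip3 (chr1:15543980-15544229, minus strand) and of Nfkbib (chr1:93181388-93181637, minus strand) follow, each read 5′ to 3′ on the strand of the gene, with kB matches in capitals. They set the member with 3 matches beside the only member that changed significantly, which, like Rela, has none. A relation between matches and change in 3D was not tested.
Tnfaip3: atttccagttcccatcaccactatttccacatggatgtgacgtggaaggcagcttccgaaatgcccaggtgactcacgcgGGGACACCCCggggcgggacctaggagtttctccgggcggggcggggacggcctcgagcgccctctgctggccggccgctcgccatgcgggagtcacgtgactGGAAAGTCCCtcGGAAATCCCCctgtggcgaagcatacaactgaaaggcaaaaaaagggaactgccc
Nfkbib: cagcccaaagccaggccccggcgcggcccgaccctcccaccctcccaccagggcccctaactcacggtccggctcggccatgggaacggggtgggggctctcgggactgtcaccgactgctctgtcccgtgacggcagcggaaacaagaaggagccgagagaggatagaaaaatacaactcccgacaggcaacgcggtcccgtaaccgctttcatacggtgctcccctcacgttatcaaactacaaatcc

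In the other 5 windows a single match was found, printed here within 30 bases on the strand of the gene, with the match in capitals. The match of Nfkbia lay at bases -31 to -22 relative to the start (chr6:78597084-78597113, minus strand). That of Nfkb2 lay at bases -20 to -11 (chr1:255108344-255108373, plus strand), and that of Nfkbie at bases -164 to -155 (chr9:22948017-22948046, minus strand). The matches of Nfkb1 (bases 4 to 13, chr2:226805440-226805469, minus strand) and Ikbkg (bases 7 to 16, chrX:157372881-157372910, plus strand) lay just after the start.
Nfkbia: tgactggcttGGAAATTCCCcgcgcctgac
Nfkb2: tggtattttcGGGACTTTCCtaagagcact
Nfkbie: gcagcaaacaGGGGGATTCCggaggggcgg
Nfkb1: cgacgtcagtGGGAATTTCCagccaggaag
Ikbkg: agccggaagtGGGGTTTTCCactgctgaga

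Levels are given as TPM, estimated transcript abundances that are corrected for length and sum to 1000000 in each sample, so that genes can be compared within a sample. Read numbers cannot be recovered from TPM. The counting error of each gene is therefore unknown, and the precision is that of 2 cultures labelled as biological replicates in each group. For the comparison, TPM were scaled between samples with factors from 0.963 to 1.02, and log2(TPM + 1) of the 11960 genes with a mean of at least 1 TPM was tested with limma, with Benjamini-Hochberg adjustment over all of them. The added 1 TPM shrinks the fold changes of weakly expressed genes. For a single gene an exact two-sided permutation test of 2 against 2 samples cannot go below p = 0.33. The calls given here rest instead on limma's model, which borrows variance from the other genes.

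The beta-cell identity of all 4 cultures was checked with 8 markers, all of which were detected, with summed levels of 147097 to 160074 TPM in 2D and 157368 to 170001 TPM in 3D, most of it Ins1. The markers did not move alike, since Ins2, the other rat insulin gene, fell (by limma, log2 fold change -0.58 with adjusted p = 0.00895) and the glucose transporter gene Slc2a2 rose (0.40, adjusted p = 0.00706), and Pdx1 was lower in both 3D cultures (-0.22, adjusted p = 0.0504). Of the markers of other cells that were matched, the 4 endothelial genes summed to 1.08 to 1.15 TPM in 2D and 1.40 to 1.68 TPM in 3D, with Cdh5 at 0 throughout. The 5 immune genes summed to 0.589 to 0.922 TPM in 2D and 0.863 to 1.46 TPM in 3D, with Ptprc and Aif1 at 0 throughout. The 4 fibroblast genes summed to 211 to 214 TPM in 2D and 180 to 211 TPM in 3D, of which Thy1 alone took 178 to 212 TPM, and Dcn was at 0 throughout. The part of these markers in the results was not tested. In bulk RNA, fewer cells with a transcript and less of it per cell cannot be told apart.

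All 10 NF-kB genes were expressed and tested. One changed significantly in 3D culture, the gene of the inhibitor IkB-beta, Nfkbib, which fell. This is 1 of 10 members, where 37.9% of all genes tested passed the same threshold of an adjusted p below 0.05 18.5% as higher and 19.3% as lower in 3D. No subunit gene passed by limma's test. At an unadjusted p below 0.05 there were 1 of 4 subunits and 5 of 10 members, beside 50.6% of all genes tested. The median log2 fold change of the 10 members was 0.03, and that of all genes tested was -0.00053. On scaled TPM the 3D and 2D cultures did not overlap for 8 of the 10 members, 5 higher and 3 lower, where 75.6% of all genes tested did not overlap, 37.7% higher and 37.9% lower in 3D.

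**Figure D1:**
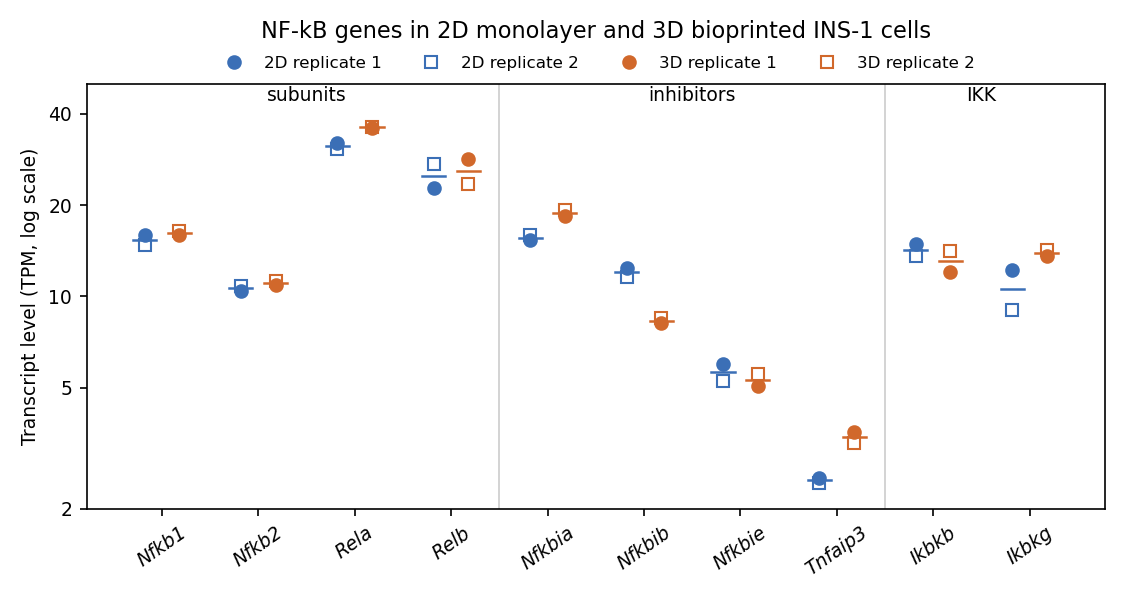
Transcript level (TPM as deposited, log axis) of the 10 NF-kB genes in each culture, with 2D in blue and 3D in orange, replicate 1 filled and replicate 2 open, and a line at each mean of 2. Rela is the highest member at 30.6 to 36.2 TPM and Tnfaip3 the lowest at 2.43 to 3.59 TPM, and Nfkbib lies at 8.16 and 8.49 TPM in 3D against 12.4 and 11.6 TPM in 2D.

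The order of TPM levels over the 4 cultures ran from Rela (mean 33.6 TPM) and Relb (25.4 TPM) through Nfkbia (17.2 TPM), Nfkb1 (15.8 TPM), Ikbkb (13.6 TPM), Ikbkg (12.3 TPM), Nfkb2 (10.9 TPM) and Nfkbib (10.2 TPM) to Nfkbie (5.47 TPM) and Tnfaip3 (2.96 TPM). Rela, Relb and Nfkbia were separated from the next lower level in 3D culture, and the first 2 of them also in 2D culture. In the middle of the order, the neighbouring pairs Nfkbia and Nfkb1, Nfkb1 and Ikbkb, and Ikbkg and Nfkb2 overlapped in 2D culture only, and Ikbkb and Ikbkg overlapped in 3D culture only. Nfkb2 and Nfkbib overlapped in neither, and their order turned, with Nfkbib higher in both 2D cultures and Nfkb2 higher in both 3D cultures. Nfkbib, Nfkbie and Tnfaip3 were separated from each other in both. By mean TPM, Rela stood at percentile 70.8 of the genes tested and Tnfaip3 at percentile 11.9.

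Among the subunits, Rela encodes p65, the transactivating partner of the canonical dimer. Its level was 32.0 and 30.6 TPM in the 2D cultures and 35.8 and 36.2 TPM in the 3D cultures. Both 3D cultures were higher, by 15.0% in the means, and the log2 fold change on scaled log2(TPM + 1) was 0.16 (standard error 0.054, 95% interval 0.02 to 0.29). The difference did not pass the threshold (adjusted p = 0.0686 in limma). Across 12 other settings its adjusted p ranged from 0.0445 to 0.260, and it passed in 1 of them, upper quartile scaling.

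Nfkb1 encodes p105, the precursor of p50, which pairs with p65. The 2D cultures had 16.0 and 14.7 TPM and the 3D cultures 15.9 and 16.4 TPM, which overlap as deposited and separate only just once scaled, with 3D higher. Its log2 fold change was 0.03, with a 95% interval of -0.12 to 0.19 (adjusted p = 0.695 in limma).

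Nfkb2 encodes p100, the precursor of p52 in the noncanonical branch of the pathway. Its level was 10.4 and 10.8 TPM in 2D and 10.9 and 11.2 TPM in 3D. The deposited values were slightly higher in 3D and overlapped once scaled. In limma the log2 fold change was 0.02, with a 95% interval of -0.17 to 0.20 (adjusted p = 0.869). Its sign changed with 2D replicate 1 left out (-0.05).

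Relb encodes RelB, the usual partner of p52. Its level was 22.7 and 27.3 TPM in 2D and 28.4 and 23.4 TPM in 3D. Each group held 1 high and 1 low culture, and the log2 fold change was 0.01 (standard error 0.14, 95% interval -0.35 to 0.36, adjusted p = 0.966 in limma). This is the widest interval of the 10 members. It turned to -0.16 with 2D replicate 1 left out and to -0.13 with 3D replicate 1 left out.

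Relb is the only member listed with more than 1 transcript, with 5 in all. ENSRNOT00000073352.2 was the main source of the spread, with 12.2 and 16.8 TPM in 2D and 16.8 and 10.6 TPM in 3D. ENSRNOT00000057802.5 was steadier, with 10.1 and 10.4 TPM in 2D and 9.07 and 10.4 TPM in 3D. Neither passed the threshold (adjusted p = 0.711 and 0.375 in limma), which 23.6% of the 15020 transcripts tested passed.

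A minor Relb transcript, ENSRNOT00000040060.6, was nearly absent from the 2D cultures. It was at 0.385 and 0 TPM in the 2D cultures and at 2.40 and 2.31 TPM in the 3D cultures, where it made up 8.45% and 9.90% of the Relb total against 1.69% and 0% in 2D. Both 3D cultures were higher than both 2D cultures. The transcript reached the minimum mean of 1 TPM only through the 3D cultures, so its difference is given as a description with no test. The last 2 Relb transcripts stayed at or below 0.162 TPM in every culture. Transcripts of 1 gene share sequence, and their estimated levels depend on how shared reads are divided.

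**Figure D2:**
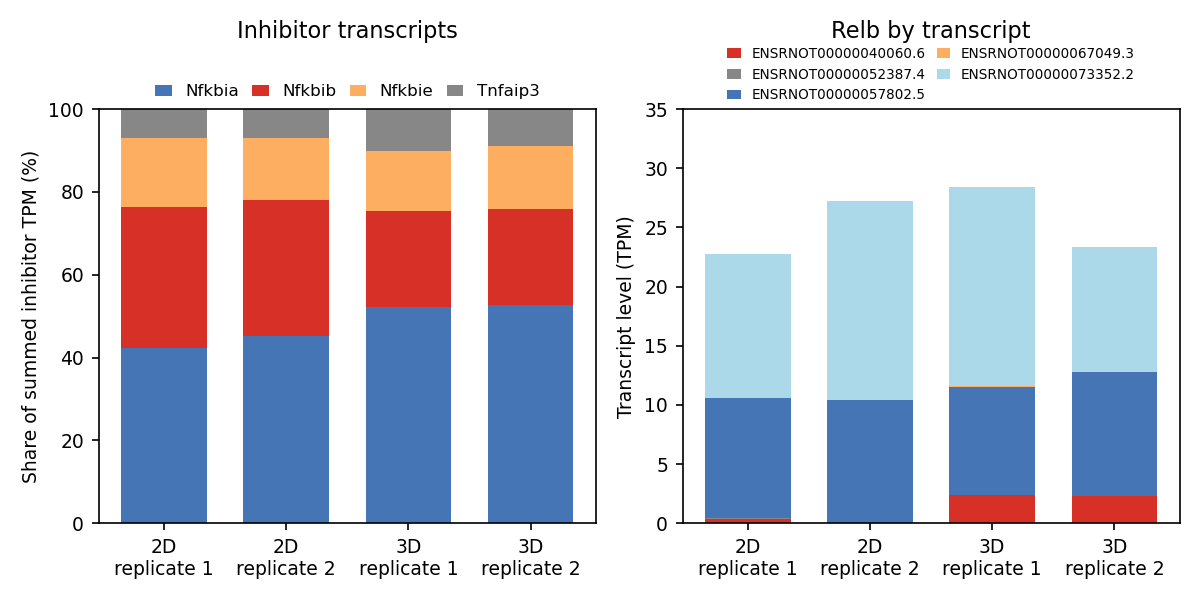
Left, share (%) of each inhibitor gene in the summed TPM of the 4 inhibitors, and right, TPM of each listed Relb transcript stacked to the gene total, with 1 bar per culture. Nfkbib falls from 34.3% and 33.0% of inhibitor TPM in 2D to 23.2% and 23.2% in 3D, and the minor transcript ENSRNOT00000040060.6 is at 2.40 and 2.31 TPM in 3D against 0.385 and 0 TPM in 2D.

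Among the inhibitors, Nfkbib encodes IkB-beta, an IkB protein whose gene, unlike that of IkB-alpha, is not known for rapid induction by NF-kB. Its level was 12.4 and 11.6 TPM in the 2D cultures and 8.16 and 8.49 TPM in the 3D cultures. Both 3D cultures were lower and the groups did not overlap. The mean fell by 30.8%, and the log2 fold change was -0.52 (standard error 0.069, 95% interval -0.69 to -0.35, adjusted p = 0.00657 in limma), larger in size than that of 86.5% of the genes tested. It stayed between -0.56 and -0.48 in 12 other settings, and 10 of them kept the call. The call was lost with 3D replicate 1 left out (adjusted p = 0.0844) and with 3D replicate 2 left out (0.0573). Its single listed transcript, ENSRNOT00000027212.5, also passed in the transcript fit (adjusted p = 0.0186 in limma).

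Nfkbia encodes IkB-alpha, the main inhibitor of the canonical dimer and a direct target of NF-kB. Its level was 15.3 and 15.9 TPM in 2D and 18.4 and 19.2 TPM in 3D. Both 3D cultures were higher, by 20.5% in the means, with a log2 fold change of 0.22 (standard error 0.071, 95% interval 0.04 to 0.39). The adjusted p was 0.0607 in limma and passed in 3 of 12 other settings, with no scaling (0.0422), with upper quartile scaling (0.0418) and with 2D replicate 2 left out (0.0489).

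Tnfaip3 encodes A20, a ubiquitin-editing enzyme that shuts off signaling upstream of IKK. Its level was the lowest of the members, with 2.54 and 2.43 TPM in 2D and 3.59 and 3.28 TPM in 3D. Both 3D cultures were higher, by 38.5% in the means. On the log2 scale the change was 0.32 (standard error 0.10, 95% interval 0.06 to 0.58, adjusted p = 0.0575 in limma), and the threshold was passed in 2 of 11 other settings.

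Nfkbie encodes IkB-epsilon. Its level was 5.99 and 5.27 TPM in 2D and 5.06 and 5.55 TPM in 3D, which overlap as deposited and separate slightly once scaled, with 3D lower. Its log2 fold change was -0.11, with a 95% interval of -0.33 to 0.12 (adjusted p = 0.379 in limma).

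The shares of Nfkbia, Nfkbib and Tnfaip3 among the inhibitor transcripts did not overlap between the groups, while the inhibitor sum did. Together the 4 inhibitor genes had 36.2 and 35.2 TPM in 2D and 35.2 and 36.5 TPM in 3D, which overlap. Nfkbia took 42.2% and 45.2% of this sum in 2D and 52.2% and 52.6% in 3D. The ratio of Nfkbia to Nfkbib TPM was 1.23 and 1.37 in 2D and 2.25 and 2.26 in 3D. These shares and ratios are descriptions of the same values and were not tested. Tnfaip3 took a mean of 6.94% in 2D and 9.59% in 3D. The summed subunit TPM were 81.1 and 83.4 in 2D and 91.0 and 87.2 in 3D. The ratio of summed inhibitors to summed subunits was 0.447 and 0.422 in 2D and 0.386 and 0.419 in 3D, so the 3D culture nearest to the 2D cultures lay only just below them. Among the subunits, each gene's share of the sum overlapped between the groups.

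Of the IKK genes, Ikbkb encodes the catalytic subunit IKK-beta and Ikbkg the scaffold NEMO, without which the canonical complex does not work. Ikbkb had 14.9 and 13.6 TPM in 2D and 12.0 and 14.1 TPM in 3D. The groups overlapped as deposited and separated once scaled, with 3D lower. The log2 fold change of Ikbkb was -0.16, with a 95% interval of -0.38 to 0.06 (adjusted p = 0.199 in limma). Ikbkg had 12.2 and 9.03 TPM in 2D and 13.6 and 14.2 TPM in 3D. Both 3D cultures were higher, while the 2D cultures differed from each other by a factor of 1.35, the widest spread within a group among the members.

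The log2 fold change of Ikbkg was 0.34 (standard error 0.12, 95% interval 0.04 to 0.64), which did not pass the threshold (adjusted p = 0.0745 in limma). It depended on the 2D cultures, with 0.49 and an adjusted p of 0.0165 when 2D replicate 1 was left out and 0.17 when 2D replicate 2 was left out. With a replicate block, a fit in which 39.2% of all genes passed, its adjusted p was 0.0481. The ratio of Ikbkb to Ikbkg TPM was 1.22 and 1.50 in 2D and 0.884 and 0.990 in 3D.

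**Figure D3:**
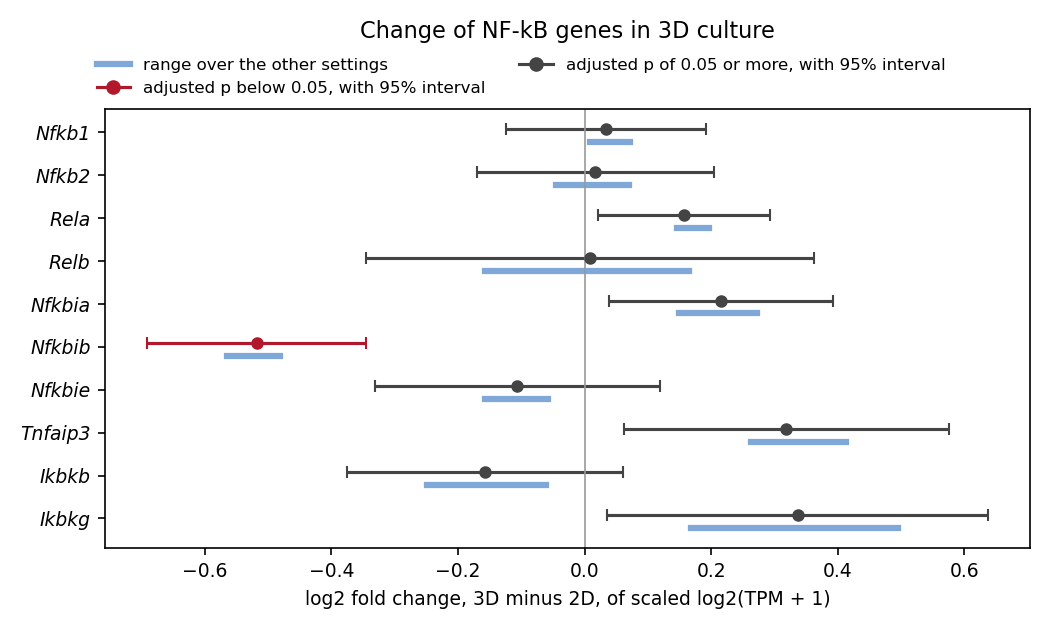
Log2 fold change (3D minus 2D) of each NF-kB gene with its 95% interval from limma, red where the adjusted p is below 0.05, and in blue the range of the estimate over the other settings. Nfkbib is the only gene in red, at -0.52, and the intervals of Rela, Nfkbia, Tnfaip3 and Ikbkg lie above 0 without passing the adjusted threshold.

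The rest of the pathway was read from a list of 82 genes ordered by role, of which 81 were matched and 50 reached a mean of 1 TPM. Of these 50, 4 rose and 5 fell (18.0% against the 37.9% of all genes tested), and their median log2 fold change was 0.01. The ligands were nearly silent. None of the 7 matched ligand genes reached the minimum, and Tnf, Il1a, Il1b, Tnfsf12 and Cd40lg were listed at 0 in all 4 cultures. The highest ligand value was 0.306 TPM, of Ltb, the gene of lymphotoxin beta.

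Among the receptors, 6 of 11 were tested and Il1r1 alone passed, as higher (16.7% called, against 37.9% of all genes tested). Il1r1 encodes the signaling receptor for interleukin-1. Its level was 11.1 and 10.2 TPM in 2D and 25.3 and 25.6 TPM in 3D, so both 3D cultures were more than double either 2D culture. Its log2 fold change in limma was 1.14 with a standard error of 0.063 (adjusted p = 0.00279), and the call was lost in 1 of 12 other settings, with 3D replicate 1 left out (adjusted p = 0.0574). Its coreceptor gene Il1rap had a mean of 2.09 TPM in 2D and 2.04 TPM in 3D (adjusted p = 0.754 in limma). The TNF receptor gene Tnfrsf1a had means of 35.4 TPM in 2D and 35.2 TPM in 3D (adjusted p = 0.562 in limma).

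**Figure D4:**
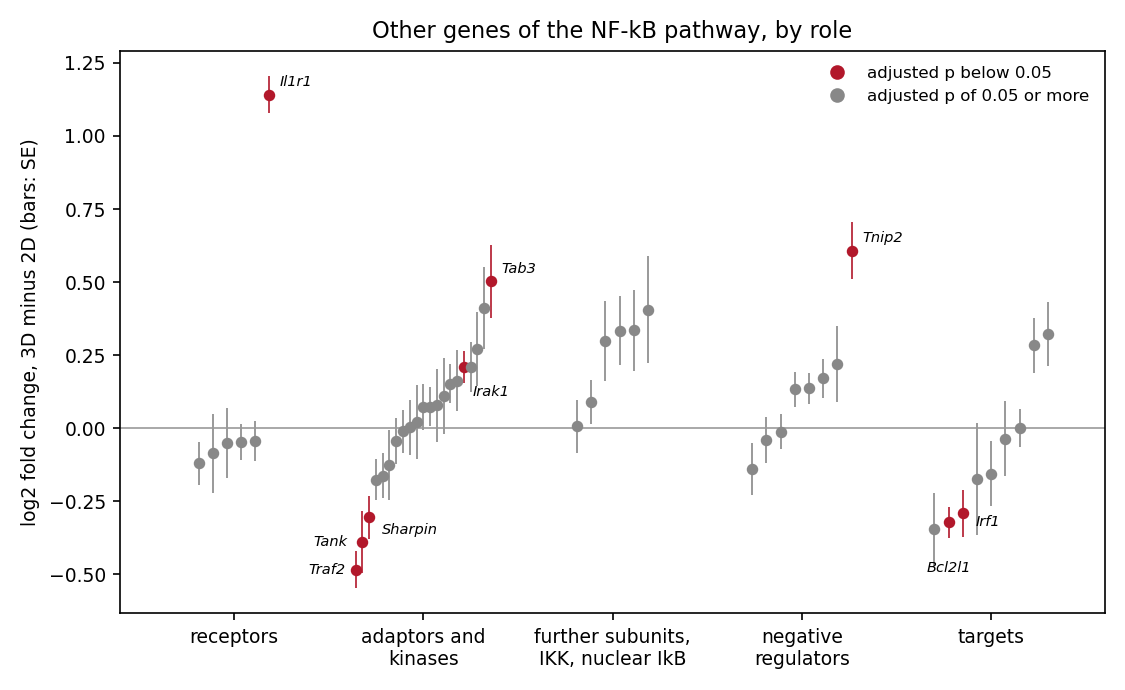
Log2 fold change (3D minus 2D) of the 50 tested genes of the rest of the pathway by role, with standard errors from limma and red where the adjusted p is below 0.05. Il1r1 stands apart at 1.14, and the other genes in red lie between -0.48 (Traf2) and 0.61 (Tnip2).

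Of the 25 adaptors and kinases that link receptors to IKK, 21 were tested, and 2 rose and 3 fell (23.8% called, against 37.9% of all genes tested). Traf2, a ubiquitin ligase adaptor of TNF receptors, fell from 23.2 and 22.9 TPM in 2D to 16.3 and 17.0 TPM in 3D (log2 fold change -0.48, adjusted p = 0.0061 in limma). Sharpin, part of the linear ubiquitin ligase complex, fell from 31.0 and 28.1 TPM to 23.0 and 25.9 TPM (log2 fold change -0.30, adjusted p = 0.0269 in limma). Tank, an adaptor of TRAF proteins, fell from 5.40 and 4.40 TPM to 3.46 and 3.73 TPM (log2 fold change -0.39, adjusted p = 0.0371 in limma).

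Irak1, a kinase of the interleukin-1 and Toll-like receptor pathways, rose from 64.4 and 59.4 TPM to 71.9 and 75.5 TPM (log2 fold change 0.21, adjusted p = 0.0328 in limma). Tab3, a partner of the kinase TAK1, rose from 3.63 and 2.70 TPM to 4.76 and 5.24 TPM (log2 fold change 0.50, adjusted p = 0.0283 in limma).

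None of the 6 further subunit, IKK and nuclear IkB genes passed in limma, and 1 had an unadjusted p below 0.05. All 6 had positive log2 fold changes, with a median of 0.32, where 49.9% of all genes tested had a positive one and 50.6% an unadjusted p below 0.05. Rel, Bcl3, Nfkbiz and Nfkbid were at most at 3.24 TPM in any culture. Chuk, the gene of IKK-alpha, ranged from 25.3 to 29.5 TPM in 2D and from 29.3 to 30.7 TPM in 3D (adjusted p = 0.371 in limma). Rel, the gene of c-Rel, had means of 1.99 TPM in 2D and 2.99 TPM in 3D (adjusted p = 0.132 in limma).

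Of the negative regulators and the IkB ligase subunits, 8 of 10 were tested and Tnip2 alone passed, as higher (12.5% called, against 37.9% of all genes tested). Tnip2 encodes ABIN-2, which binds A20, and had 2.81 and 2.99 TPM in 2D and 4.89 and 5.27 TPM in 3D (log2 fold change 0.61, standard error 0.098, adjusted p = 0.0098 in limma). Btrc and Fbxw11, which encode the ligase subunits that recognize phosphorylated IkB, had adjusted p of 0.124 and 0.0967 in limma.

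Of 22 known NF-kB target genes, 13 lay below a mean of 1 TPM, among them Ccl2, Ccl5, Vcam1, Il6 and Plau at 0 in all 4 cultures. Also below it, Icam1 (0.575 and 0.399 TPM in 2D, 0.983 and 0.907 TPM in 3D), Cx3cl1, Lif, Cxcl2 and Ptgs2 were higher in both 3D cultures. No target below the minimum was lower in both. These low levels were not tested, and 75.6% of all genes tested did not overlap between the groups on scaled TPM. Of the 9 tested, none passed as higher and 2 as lower, which is 22.2% against 37.9% of all genes tested. By sign, 3 of the 9 were higher and 6 lower. Cflar and Gadd45b were higher in both 3D cultures (log2 fold change 0.28 and 0.32) without passing (adjusted p = 0.0642 and 0.0655 in limma). Fas was lower in both 3D cultures (log2 fold change -0.35), also without passing (adjusted p = 0.075 in limma). Bcl2l1, the gene of the survival protein BCL-XL, fell from 49.1 and 47.1 TPM in 2D to 39.1 and 39.6 TPM in 3D (log2 fold change -0.32, adjusted p = 0.0101 in limma). Irf1, an interferon-responsive transcription factor, fell from 13.2 and 13.6 TPM to 10.5 and 11.7 TPM (log2 fold change -0.29, adjusted p = 0.0384 in limma). Sod2, the mitochondrial superoxide dismutase, had a mean of 70.2 TPM in 2D and 72.4 TPM in 3D (adjusted p = 0.980 in limma).

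With either 3D culture left out, most calls over all genes were lost, and the losses there are not particular to the pathway. Of the 9 pathway calls outside the members, none held with 3D replicate 1 left out. With 3D replicate 2 left out, only that of Il1r1 held, with a log2 fold change of 1.15. Sharpin and Tank also lost their calls with 2D replicate 1 left out (adjusted p = 0.0692 and 0.0908). Irak1, Tab3 and Irf1 lost theirs with 2D replicate 2 left out (0.0767, 0.0709 and 0.109). Each of these 5 calls was also lost in another setting, Sharpin, Tank and Irf1 with no scaling (0.0665, 0.0738 and 0.0676) and with no filter (0.0523, 0.0741 and 0.0744), Tab3 with no filter (0.0644) and Irak1 with no intensity trend (0.0615).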

How the data were processed

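Libraries were stranded, poly(A)-selected and sequenced from 1 end. The authors checked reads with FastQC 0.11.8 and estimated transcript levels with Salmon 1.2. They name the reference as rn4 plus the human insulin sequence, and whether the transcript identifiers belong to that build was not resolved. They deposited TPM per transcript for each of the 4 cultures, written with decimal commas. The total is 1000000 per sample, so the depth is not retained. The lengthScaledTPM summary, the low-count filter and the count-based test of the methods need counts and were not repeated.

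The sample labels gave the group and replicate number of each culture. TPM were summed per gene symbol and scaled by TMM without weights (trims of 30% for M and 5% for A). Where the mean reached 1 TPM, log2(TPM + 1) was compared in R 4.3.3 with limma 3.58.1, with group as the only term and a mean-variance trend in the empirical Bayes step. Transcripts were tested likewise. The steps were run on simulated TPM with known changes in far fewer genes than were called here. That run checked the code and not the error rate in these data. Same-numbered cultures were not treated as paired, since the methods state no block, and whether they share a preparation is not known (correlation of same-numbered deviations -0.00591 across genes). No pair of samples shared a transcript value above 0.

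All 10 members are named, and of the other pathway genes those with an adjusted p below 0.05, at most 5 a role. The other genes given with values or a direction (Ltb, Il1rap, Tnfrsf1a, Chuk, Rel, Bcl3, Nfkbiz, Nfkbid, Btrc, Fbxw11, Cflar, Gadd45b, Fas, Cxcl10, Icam1, Cx3cl1, Lif, Cxcl2, Ptgs2, Sod2, Ins2, Slc2a2 and Pdx1) were chosen after their values were seen. The members were chosen by name and the lists by role, both with earlier results of these data known. The alternatives were other scalings, pseudocounts, filters and empirical Bayes options, a replicate block, a stricter threshold and each culture left out. Tnfsf11, Pecam1 and Col1a2 were not matched by symbol. Promoter letters are from RefSeq (GRCr8), and no genome of the files' build was used.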

Additional observations from a re-analysis of the deposited data

How the results depend on the processing

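The number of members called was 1, and it was 2 with no scaling (with Nfkbia), 3 with upper quartile scaling (with Nfkbia and Rela), and 2 both with no intensity trend and with robust empirical Bayes (with Tnfaip3). With a replicate block it was also 2, since Ikbkg passed (adjusted p = 0.0481 in limma). Whether the numbers pair the cultures is not known, and the block called 4689 genes in place of 4527. With each culture left out, the members called ranged from 0 to 2. They were 0 with either 3D culture left out, where 1 and 2 members and 31.5% and 35.6% of all genes had an unadjusted p below 0.05 in limma. The other pathway genes called ranged from 0 to 11, against 9, and were 6 with no scaling and 13 with no intensity trend. The genes called ranged from 41 (3D replicate 1 left out) and 744 (3D replicate 2 left out) to 4507, and 1412 passed an adjusted p below 0.01. Leaving out a culture leaves 1 group with a single sample, which is assumed to vary like the other. The transcripts called were 3550, and 2087 with no filter and 2365 with no intensity trend. With each culture left out they ranged from 0 to 2950. They were 0 in limma for 3 of the cultures (3D replicate 1, 2D replicate 2 and 3D replicate 2), where 3634, 5310 and 4091 transcripts had an unadjusted p below 0.05. The ratio of summed inhibitors to summed subunits differed by -0.0319 between 3D and 2D, and by -0.0402 with IkB genes alone. With each culture left out this difference ranged from -0.048 to -0.0157. Signs that changed when a culture was left out were those of Nfkb2 (log2 fold change -0.0452 to 0.0700), its transcript ENSRNOT00000026235.3 (-0.0653 to 0.0537), Relb (-0.16 to 0.17), its transcript ENSRNOT00000073352.2 (-0.461 to 0.170) and the Nfkb1 transcript ENSRNOT00000036838.4 (-0.00847 to 0.0287), none of them called in limma.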

Other observations

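The kB consensus motif was also counted in the RefSeq promoter windows of the other pathway lists, as a description of letters. It was present in 7.51% of all 33469 windows. Of the known targets, 8 of the 16 with a window held a match, namely Ccl20, Cxcl1, Cxcl2, Cxcl10, Vcam1, Il6, Fas and Irf1. Of these 8 genes, Cxcl10, Fas and Irf1 reached a mean of 1 TPM. Irf1 was significantly lower in 3D culture (adjusted p = 0.0384 in limma). Cxcl10 and Fas did not pass (log2 fold change -0.17 and -0.35, adjusted p = 0.497 and 0.075 in limma). The threshold was passed by 37.9% of all genes tested, and a relation between matches and change was not tested. Among the further subunits and nuclear IkB genes, 3 of 5 held a match (Rel, Bcl3 and Nfkbiz), among the receptors 3 of 9 (Il1r1, Il1rap and Tlr2), among the ligands 2 of 6 (Lta and Ltb), among the adaptors and kinases 2 of 18 (Traf3 and Tank) and among the negative regulators 1 of 8 (Tnip1).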
